A study of Homo sapiens with 12 samples.

Results

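PANC-1 cells that overexpressed deltaNp63 were compared with mock PANC-1 cells across all genes. PANC-1 is an established human line of pancreatic ductal carcinoma. The comparison takes 4 of the 12 RNA-seq libraries, 2 per group, chosen by the cell line and the genotype label, and it covers 14767 tested genes of the 39099 to which the transcripts were matched. The other 8 libraries are TAp63-overexpressing PANC-1 cells and mock, TAp63 and deltaNp63 cells of AsPC-1, another established pancreatic cancer line, with 2 libraries in each group. The label of the mock cells says no more than mock, and the vector, its promoter, the time after delivery and whether each line was 1 clone or a pool are not given in the sources used here. The 2 libraries of a group are called biological replicates by the labels. The p-values measure the spread between the libraries of a group, pooled over all 12 libraries, so groups outside the comparison also enter that spread.

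p63 is a transcription factor of the p53 family, encoded by TP63. Transcription from an upstream promoter gives TAp63 proteins, which carry an N-terminal transactivation domain, and transcription from a promoter inside the gene gives deltaNp63 proteins, which lack that domain and keep the DNA-binding domain. DeltaNp63 is the main form in basal cells of stratified epithelia, where it is known to maintain keratin and adhesion genes. In pancreatic cancer its expression is known as a mark of the squamous (basal-like) subtype, set against a classical subtype with endodermal and mucin genes.

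Levels are TPM, relative transcript abundances scaled to a fixed total per library, and differences are log2 fold changes on the log2(TPM + 1) scale, deltaNp63 minus mock, which understate the change of low genes. Read depth cannot be read from TPM and is unknown here, so precision rests on the replicates alone. The 6 PANC-1 libraries held between 13069 and 13161 genes at 1 TPM or more. Mitochondrial mRNA took 1.52% to 2.09% of their TPM and ribosomal protein mRNA 13.55% to 14.85%. The labelled cell type was checked in the 4 libraries against markers: KRT19, a ductal keratin, stood between 707 and 722 TPM, and 9 of 10 ductal and PANC-1 markers reached 1 TPM. PTPRC, the pan-leukocyte marker, was at most 0.00943 TPM, and the 7 endothelial markers summed to between 1.38 and 1.44 TPM. The summed leukocyte markers, 256.38 to 290.57 TPM, were almost all CD68, a lysosomal protein gene, and 9 of 12 were under 1 TPM in all 4 libraries. Of 11 fibroblast markers 8 were under 1 TPM, with COL1A1 at 80.8 to 88.6 TPM, and of 12 acinar and endocrine markers 11 were. The summed leukocyte, fibroblast and ductal markers overlapped between mock and deltaNp63. The endothelial sum did not, at 1.38 and 1.38 TPM in mock and 1.41 and 1.44 TPM in deltaNp63 cells. The summed acinar and endocrine markers, mostly the vesicle gene SYP, were at 7.18 and 6.53 TPM in mock and 7.77 and 7.7 TPM in deltaNp63 cells, also without overlap, and the part of either sum in the results was not tested.

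TP63 checked the labels. The gene lies on chromosome 3, plus strand, from 189631389 to 189897276 (GENCODE v44 on hg38). The start of the coding sequence separates the isoform classes, so the first coding exon of a TA-class and of a deltaN-class transcript is shown, read 5′ to 3′ from GENCODE v44. Capitals mark the first coding exon of each class, which spans 189631516 to 189631577 (62 bases) for TA and 189789801 to 189789842 (42 bases) for deltaN, and the lower-case bases are the start of the next exon.
TP63-210, TA start: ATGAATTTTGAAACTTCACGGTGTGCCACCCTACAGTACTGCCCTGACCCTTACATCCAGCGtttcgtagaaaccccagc
TP63-212, deltaN start: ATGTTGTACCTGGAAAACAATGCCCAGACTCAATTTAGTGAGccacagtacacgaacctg
The annotated deltaN-class transcripts also differ at the 3′ end of the coding sequence. TP63-212 uses 294 coding bases of its last coding exon (189894206 to 189894499), and TP63-205 reads 23 bases of the same exon (189894206 to 189894228) before a stop. Their last coding bases are shown with the stop codon in capitals.
TP63-212, coding end: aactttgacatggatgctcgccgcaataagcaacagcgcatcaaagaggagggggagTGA
TP63-205, coding end: gatctggcaagtctgaaaatcccTGA

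TP63 was at 0.119 and 0.0245 TPM in the mock libraries and at 815 and 1187 TPM in the deltaNp63 libraries. It ranked 17806 and 20372 by level in the mock libraries and 163 and 106 in the deltaNp63 libraries. The log2 fold change was 9.84 (95% interval 9.28 to 10.41, limma adjusted p 7.2e-08), and TP63 passed the threshold in all 22 other settings in which it was tested. TAp63-overexpressing PANC-1 cells held 324 and 342 TPM. The 2 deltaNp63 libraries stood above both TAp63 libraries, by 1.56 log2 units, without passing the threshold (limma adjusted p 0.213).

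Transcripts with the internal start made up 99.965% and 99.985% of the TP63 TPM in the deltaNp63 libraries, so these libraries carried the class their label names. In the TAp63 libraries the upstream class made up 61.161% and 62.824%. The remainder there was a single internal-start transcript, TP63-211, at 125.756 and 127.224 TPM. Within the deltaNp63 libraries TP63-212 was the most abundant transcript in library 1 (307.794 TPM), and TP63-211 in library 2 (428.897 TPM). TP63-205 was at 170.062 and 263.407 TPM, and TP63-213, annotated as a retained intron with no coding sequence, at 85.8871 and 129.413 TPM. Transcripts with the full last coding exon held 68.6% and 66.9% of the TP63 TPM, and those with another coding end 20.9% and 22.2%. The split between transcripts of a gene rests on the deposited read assignment, whose program is not given in the sources used here.

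**Figure D1:**
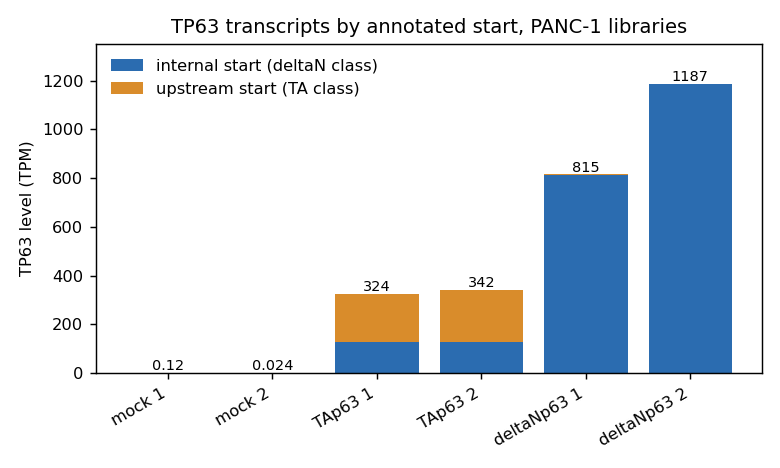
Bars give the TP63 level (TPM) in each of the 6 PANC-1 libraries, stacked by annotated transcript start; the number above a bar is the total. The 2 deltaNp63 libraries (815 and 1187 TPM) are nearly all internal-start, the 2 TAp63 libraries (324 and 342 TPM) are mixed, and the mock libraries are near 0.

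Beyond TP63 few genes passed the test between deltaNp63 and mock PANC-1 cells. In limma with Benjamini-Hochberg adjustment over all 14767 genes, 6 genes passed an adjusted p of 0.05 (0.0406%), with 4 higher (0.0271%) and 2 lower (0.0135%) in deltaNp63 cells. Under quantile normalization or median centring 2 passed, both higher. At an unadjusted p under 0.05 there were 345 genes (2.34%). The group means differed by a median of 0.074 log2 units per gene in absolute terms, against 0.141 between the 2 deltaNp63 libraries and 0.11 between the 2 mock libraries. A difference of 1 log2 unit or more was seen for 64 genes between the group means, 204 genes between the deltaNp63 replicates and 190 between the mock replicates. A mean of 2 libraries varies less than a single library, so these figures describe sizes and are no test.

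The intervals say which sizes of change the data allow. For 13992 genes (94.8%) the 95% interval of the log2 fold change lay within 1 unit of 0 on the log2(TPM + 1) scale. A pseudocount of 1 limits how far low genes can move, and with a pseudocount of 0.1 the number was 11956 (81.0%). The filter counted all 12 libraries, so genes near 0 in PANC-1 were tested too, and these could hardly leave the bounds. This holds for the list counts below as well. A fit of the 6 PANC-1 libraries, filtered on these, gave 12993 of 13518 genes. The precision followed the level: 99.7% of genes at 100 TPM or more had such an interval, 97.2% of those from 5 to 20 TPM and 83.0% of those under 1 TPM. The median half-width of the interval fell from 0.45 log2 units under 1 TPM to 0.22 at 100 TPM or more. The remaining 775 genes, TP63 included, had intervals that reached a change of 1 unit.

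**Figure D2:**
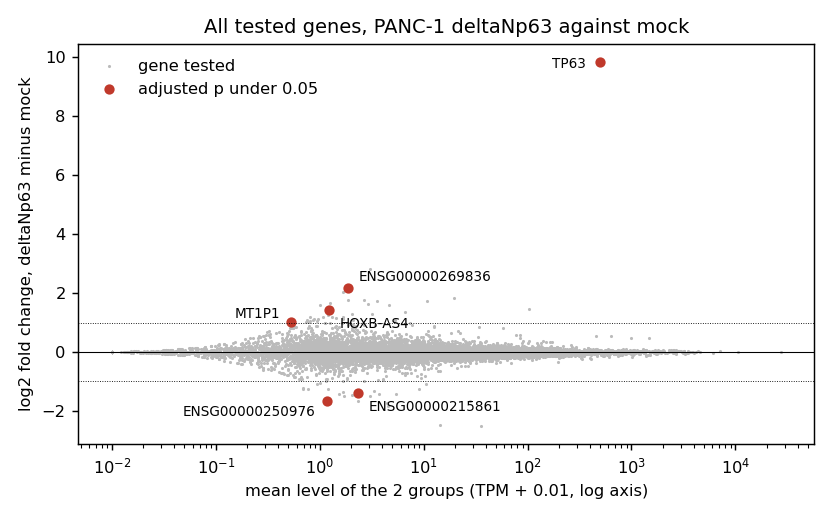
Each grey point is 1 of the 14767 tested genes, with the mean TPM of the mock and deltaNp63 groups on a log axis and the log2 fold change (deltaNp63 minus mock) on the other; red points are the 6 genes past an adjusted p of 0.05 and dotted lines mark a change of 1 unit. TP63 stands alone at 9.84, and the other 5 called genes have low levels.

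The 5 other called genes were low and mostly noncoding: 1 of the 6 called genes was protein-coding, TP63, against 85.8% of tested genes. All 6 overlap another annotated gene, as 73.9% of tested genes do, so reads of the overlapping gene could enter their values. These 5 genes were listed at 0 in all 6 AsPC-1 libraries, which lent the shared fit residual degrees of freedom with no spread. HOXB-AS4, ENSG00000269836 and MT1P1 reached 1 TPM in the deltaNp63 libraries alone, and ENSG00000250976 in the PANC-1 mock libraries alone. These 4 genes entered the test only through the group in which they were high, so their values are a description and their p-values support nothing. In fits of the 6 PANC-1 libraries alone TP63 was the only gene that passed.

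HOXB-AS4, a long noncoding RNA on chromosome 17 (48628675 to 48634932, plus strand) that overlaps HOXB7, was at 0.278 and 0.142 TPM in mock and at 2.21 and 2.25 TPM in deltaNp63 cells. Its log2 fold change was 1.42 (SE 0.137, limma adjusted p 0.0103), and the TAp63 libraries lay between the groups at 0.929 and 0.66 TPM. HOXB-AS4 passed in 14 of 21 other settings, with an adjusted p from 0.000522 to 0.427, and lost its call without mock replicate 2 (0.0629), without deltaNp63 replicate 1 (0.0812) and without deltaNp63 replicate 2 (0.0669). HOXB7 itself was at 131 and 116 TPM in mock and 130.5 and 117 TPM in deltaNp63 cells, with groups that overlap.

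ENSG00000269836, a long noncoding RNA inside MYO9B on chromosome 19 (17177511 to 17178476, minus strand), was listed at 0 in the mock and TAp63 libraries and at 5.2 and 2.22 TPM in deltaNp63 cells (limma adjusted p 0.0314, past the threshold in 7 of 21 other settings). MT1P1, a processed metallothionein pseudogene inside FANCC on chromosome 9 (95413267 to 95413449, minus strand), was listed at 0 in the mock and TAp63 libraries and at 1.02 and 1.03 TPM in deltaNp63 cells (limma adjusted p 0.0466, past it in 5 of 21). A pseudogene shares sequence with its parent genes, so its value is uncertain. Both genes were listed at 0 in the other 10 libraries, a pattern that the filter of 1 TPM in 2 libraries favours among low genes. Without either mock library each lost its call: the adjusted p of ENSG00000269836 was 0.146 without mock replicate 1 and 0.177 without mock replicate 2, and that of MT1P1 was 0.127 and 0.146. MT1P1 also lost its call without deltaNp63 replicate 1 (0.26) or 2 (0.18).

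The 2 genes that fell were also uncertain. ENSG00000250976, a long noncoding RNA that overlaps CACNA1G on chromosome 17 (50563203 to 50563783, minus strand), was at 3.19 and 1.44 TPM in mock and listed at 0 in the deltaNp63 and the TAp63 libraries (limma adjusted p 0.0474). ENSG00000215861, a transcribed unprocessed pseudogene on chromosome 1 (149197992 to 149321732, minus strand), was at 3.12 and 4.47 TPM in mock and 0.685 and 0.977 TPM in deltaNp63 cells (limma adjusted p 0.0474), with the TAp63 libraries at 3.72 and 5.14 TPM. Without deltaNp63 replicate 1 or 2 the adjusted p was 0.391 or 0.328 for ENSG00000250976 and 0.391 or 0.216 for ENSG00000215861. ENSG00000215861 also lost its call without mock replicate 1 (0.0586) or 2 (0.269), and ENSG00000250976 without TAp63 replicate 1 (0.0792) or 2 (0.0791). Leaving out any AsPC-1 library ended the call of 4 of the 5 genes, MT1P1, ENSG00000269836, ENSG00000250976 and ENSG00000215861, with adjusted p from 0.0808 to 0.136, while HOXB-AS4 kept its call there (0.0369 to 0.0472).

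Apart from TP63, the largest differences at moderate level did not pass the threshold. Among genes with a mean of at least 5 TPM, no overlap between the groups and an unadjusted p under 0.05, the 10 highest were TP63, SNURF, DHX37, PON2, C15orf40, LTBP4, IFNB1, IFNL2, IFNL3 and RABL2A. SNURF was at 4.05 and 5.42 TPM in mock and 9.8 and 10.7 TPM in deltaNp63 cells (log2 fold change 0.98, limma adjusted p 0.108), and it shares its transcription unit with SNRPN, which was at 10.2 and 7.85 TPM against 9.5 and 9.87 TPM. The TAp63 libraries were as high for SNURF, at 11.6 and 9.94 TPM. PON2, a lactonase of the paraoxonase family, was at 24.2 and 23.6 TPM in mock and 48.6 and 38.8 TPM in deltaNp63 cells (0.84, limma adjusted p 0.782). LTBP4, which binds latent TGF-beta in the matrix, was at 8.98 and 9.02 TPM against 12.7 and 14.7 TPM (0.55, limma adjusted p 1).

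On the lower side 9 of the 10 were ENSG00000228144, APOC1, ENSG00000288258, CEP152, HMSD, MYD88, ZNF232-AS1, ENSG00000291203 and MORN1. CEP152, a centriole duplication protein, was at 8.88 and 8.91 TPM in mock and 5.16 and 4.88 TPM in deltaNp63 cells (-0.72, limma adjusted p 0.429). A single CEP152 transcript, chosen after its values were seen, was at 3.32 and 4.06 TPM in mock and listed at 0 in both deltaNp63 libraries. Most of the gene-level difference lay in that transcript, and the part of read assignment between transcripts was not tested. APOC1, an apolipoprotein, was at 8.68 and 8.66 TPM against 5.02 and 4.34 TPM (-0.77, limma adjusted p 1), and its TAp63 libraries stayed at 8.13 and 9.48 TPM. ENSG00000228144 had the lowest value, -2.49, with mock libraries far apart at 12 and 39 TPM. MYD88, the adaptor of Toll-like and interleukin-1 receptors, was at 6.25 and 8.2 TPM against 4.97 and 3.66 TPM (-0.63). HMSD was at 8.63 and 10.9 TPM against 5.57 and 5.46 TPM, and MORN1 at 9.08 and 7.97 TPM against 5.29 and 5.58 TPM. Of the 20 genes on both sides 18 are protein-coding and 13 (65.0%) overlap another gene.

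Gene lists were read by their counts and medians. With 2 libraries per group, 10.8% of all tested genes had both deltaNp63 libraries above both mock libraries, and 16.3% had both below, together 27.1%. The median log2 fold change of all genes was -0.015, and centring each library on its median turned these shares to 14.7% and 13%. A list whose shares lie near these does not stand out from the background.

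Known p63 targets and basal epidermal genes gave no member past the threshold. Of 77 genes on the list 46 were tested, with a median log2 fold change of 0.059, 9 members above mock without overlap (19.6%) and 3 below (6.52%). KRT5, a keratin of basal cells and textbook p63 target, was at 0 and 0.175 TPM in mock and 0.103 and 0 TPM in deltaNp63 cells. KRT14, its keratin partner, was at 0.0284 and 0.0739 TPM against 0.114 and 0.356 TPM. Both stayed too low to be tested, with 815 and 1187 TPM of TP63 in the same libraries. Of the 31 members under the filter only EPHB3 reached 1 TPM in a deltaNp63 library (1.05 TPM), and 7 were listed at 0 in all 4 libraries.

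Among the tested members KRT17, a keratin of basal and activated epithelia, had the highest value: 10.9 and 12.7 TPM in mock, 16.5 and 16.4 TPM in deltaNp63 cells (log2 fold change 0.45, 95% interval 0.03 to 0.88, limma adjusted p 1). S100A2, a calcium-binding protein of basal cells, was at 35.2 and 33.5 TPM against 46.3 and 43.0 TPM (0.37, interval -0.27 to 1.01). KRT15 was at 10.6 and 10.5 TPM against 12.9 and 12.1 TPM, and TP73, the p53-family relative of TP63, at 2.71 and 3.11 TPM against 3.63 and 3.58 TPM. These 4 genes were separated between the groups by less than 0.5 log2 units each. In the TAp63 libraries KRT17 was at 16 and 13 TPM and TP73 at 3.3 and 3.77 TPM, each above both mock libraries. TRIM29, a squamous marker, was at 0.483 and 0.203 TPM against 0.372 and 0.802 TPM, with overlap. The lowest member was the gap junction gene GJB2 at 11.4 and 9.68 TPM against 9.17 and 9.23 TPM (-0.17). The interval lay within 1 unit of 0 for 45 of the 46 tested members, S100A2 being the exception. That count includes members nearly absent from PANC-1 that passed the filter through AsPC-1, such as SERPINB5 (interval -0.27 to 0.29). On the log2(TPM + 1) scale such members could hardly leave these bounds, so the count is no evidence about them. KRT15 and S100A2 were named after their values were seen.

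**Figure D3:**
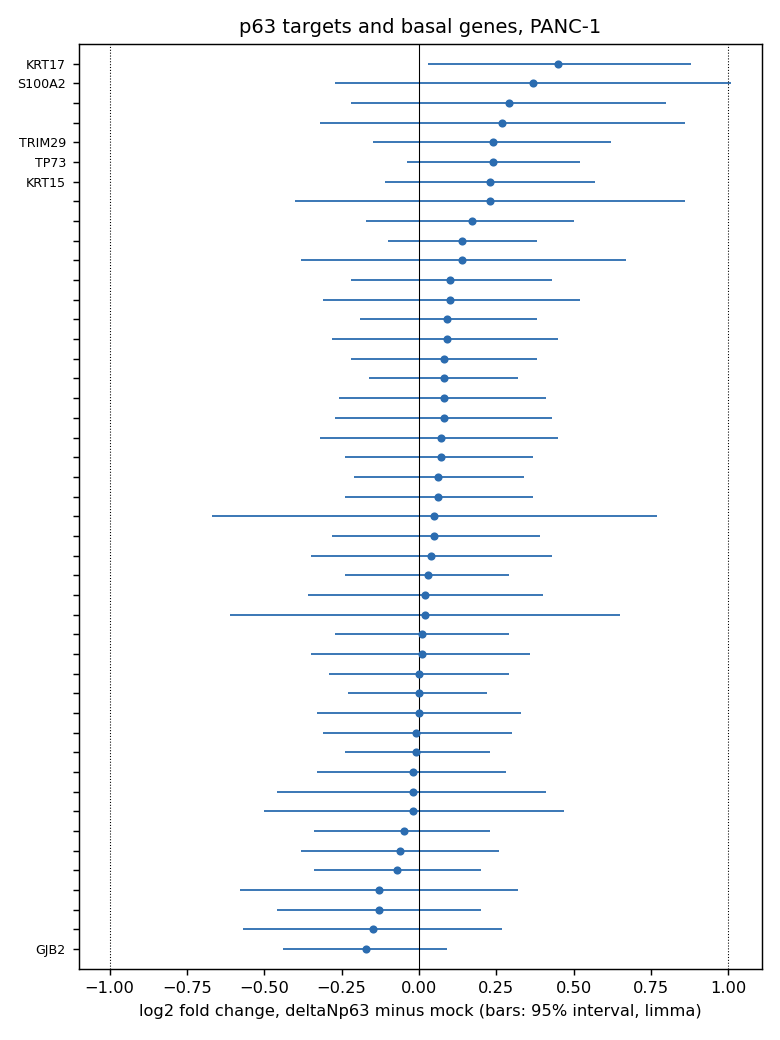
Points give the log2 fold change (deltaNp63 minus mock, PANC-1) of the 46 tested p63 targets and basal genes, with genes described in the text labelled, and bars the 95% interval from limma; dotted lines mark a change of 1 unit. Values run from -0.17 (GJB2) to 0.45 (KRT17), and the interval of S100A2 alone crosses a dotted line.

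Cell adhesion genes gave no call. Of 26 tested hemidesmosome, desmosome and integrin genes 0 were above mock without overlap and 5 were below (19.2%), against 10.8% and 16.3% of all genes. The median was -0.021, and all 26 intervals lay within 1 unit. ITGB4, the beta subunit of the hemidesmosome integrin, was at 10.9 and 8.13 TPM in mock and 8.11 and 6.78 TPM in deltaNp63 cells (-0.31, interval -0.64 to 0.02). Its partner ITGA6 was at 55.3 and 55.4 TPM against 46.0 and 57.8 TPM. LAMB3, a laminin-332 chain, was at 1.75 and 2.17 TPM against 1.71 and 2.13 TPM, and PERP, a desmosome protein and p63 target, at 608 and 504 TPM against 528 and 474 TPM. The values of ITGA6, LAMB3 and PERP overlapped between the groups.

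Epithelial, mesenchymal and subtype genes gave no call. Medians were 0.012 over 31 epithelial genes, -0.028 over 40 mesenchymal genes and -0.042 over 33 classical endodermal genes. VIM, the mesenchymal intermediate filament, was at 4439 and 4695 TPM in mock and 4291 and 4867 TPM in deltaNp63 cells (0.00, interval -0.19 to 0.19). CDH1, E-cadherin, was at 3.51 and 2.42 TPM against 2.37 and 2.61 TPM, and CDH2, N-cadherin, at 22.3 and 20.6 TPM against 19.6 and 22.1 TPM. ZEB1, a repressor of epithelial genes, was at 22.3 and 22.9 TPM against 23.7 and 27.5 TPM. SPARC, a matrix glycoprotein, was the lowest mesenchymal member, at 16.4 and 14.8 TPM against 12.2 and 8.94 TPM (-0.53, interval -1.04 to -0.02, limma adjusted p 1). Of the classical genes GATA6, the endodermal factor that marks that subtype, was at 0.445 and 0.719 TPM against 0.697 and 0.963 TPM. TFF3, a trefoil peptide named after its values were seen, was at 1.6 and 0.655 TPM against 0.318 and 0 TPM (-0.85, limma adjusted p 1). PATJ, a polarity scaffold, had the largest positive value of the epithelial list with no overlap, at 5.29 and 4.95 TPM against 7.16 and 6.35 TPM. F11R, a tight junction protein, was at 35.1 and 33.1 TPM against 25.7 and 32.6 TPM.

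Targets of the p53 family, which p63 isoforms can bind, did not pass in any case among 58 tested genes. The median was 0.027, with 10 members above mock without overlap (17.2%) and 4 below (6.9%), and all 58 intervals lay within 1 unit. CDKN1A, the p21 cell cycle inhibitor, was at 91.8 and 107 TPM in mock and 90.3 and 112 TPM in deltaNp63 cells (0.02, interval -0.28 to 0.32). MDM2, the p53 ubiquitin ligase, was at 17.5 and 20.5 TPM against 17.5 and 21 TPM. BBC3, the apoptosis gene PUMA, had the largest positive value with no overlap, at 14.3 and 13.6 TPM against 16.6 and 18.6 TPM (0.31, interval -0.12 to 0.75). SFN, the 14-3-3 sigma gene, was at 194 and 205 TPM against 214 and 214 TPM (0.10). POLK, a translesion polymerase, was at 18.6 and 20.5 TPM against 14.5 and 16.5 TPM (-0.32).

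Regulators and partners of p63 gave no call beside TP63. Of the 33 genes on this list, which holds TP63 itself, 2 lay above mock without overlap (TP63 and TP73, 6.06%) and 3 below (9.09%). The shares over all genes were 10.8% and 16.3%. ITCH, a ubiquitin ligase of p63, was at 39.5 and 38.6 TPM in mock and 35.7 and 42.1 TPM in deltaNp63 cells, and PPP1R13L, an inhibitor of p53-family activity, at 21.2 and 27.8 TPM against 26.5 and 26.8 TPM. STXBP4, known to stabilise deltaNp63, was at 2.68 and 4.12 TPM against 2.33 and 2.47 TPM (-0.35, limma adjusted p 1).

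Proliferation genes gave no call among 101 tested members, with a median of -0.046. Without overlap, 7 lay above mock (6.93%) and 18 below (17.8%), against 10.8% and 16.3% of all genes. MKI67 was at 39.1 and 41.3 TPM in mock and 38.3 and 44 TPM in deltaNp63 cells, and CCNB1, the mitotic cyclin, at 278 and 242 TPM against 248 and 220.4 TPM. CDT1, a replication licensing factor, had the largest positive value with no overlap (28.8 and 31.4 TPM against 33.5 and 36.1 TPM). BRCA2, a homologous recombination gene, had the largest negative one (5.5 and 5.22 TPM against 5.05 and 3.69 TPM). Every interval in this list lay within 1 unit of 0, the bounds running from -0.72 to 0.72.

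Interferon ligands and interferon response genes gave no call. PANC-1 cells held high levels of type III interferon transcripts already in mock. IFNL2 was at 503 and 528 TPM in mock and 689 and 805 TPM in deltaNp63 cells (log2 fold change 0.53, interval 0.28 to 0.78, limma adjusted p 0.634, from 0.299 to 1 over the other settings). IFNL3 was at 353 and 384 TPM against 487 and 579 TPM (0.53, interval 0.16 to 0.89). IFNL1, named after its values were seen, was at 778 and 881 TPM against 1103 and 1221 TPM (0.49, interval 0.17 to 0.80). IFNB1, the type I ligand, was at 9.3 and 10.5 TPM against 14.6 and 15.1 TPM (0.54, interval 0.01 to 1.08). Both deltaNp63 libraries lay above both mock libraries for these 4 ligands, and none passed the threshold. The TAp63 libraries also lay above both mock libraries for IFNL1 (973 and 899 TPM), IFNL2 (616 and 577 TPM) and IFNL3 (423 and 408 TPM). For IFNB1 they overlapped mock, at 10.9 and 7.81 TPM. IFNL2 and IFNL3 are near-identical copies, so reads may be split between them and they are not separate evidence.

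The 94 tested interferon response genes had a median of 0.031, with 0 passed and all 94 intervals within 1 unit of 0. Without overlap, 20 lay above mock (21.3%) and 3 below (3.19%), against 10.8% and 16.3% of all genes. After median centring, 28 lay above (29.8%) and 1 below (1.06%), against 14.7% and 13% of all genes. Members of this list are not independent, so these counts are a description. MX1, an antiviral GTPase, was at 429 and 439 TPM in mock and 411 and 503 TPM in deltaNp63 cells, and IFIT1, which binds foreign RNA caps, at 958 and 920.1 TPM against 956 and 955 TPM. IFIH1, the double-stranded RNA sensor MDA5, was highest in the list with 4.6 and 5.22 TPM against 7.31 and 6.6 TPM (0.43, interval 0.07 to 0.79, limma adjusted p 1). IRF1, an interferon regulatory factor named after its values were seen, was at 120.1 and 120.3 TPM against 138 and 159 TPM (0.30), and its TAp63 libraries were at 150.2 and 139 TPM. The median over the list moved between -0.013 and 0.084 when 1 of the 4 libraries was left out.

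**Figure D4:**
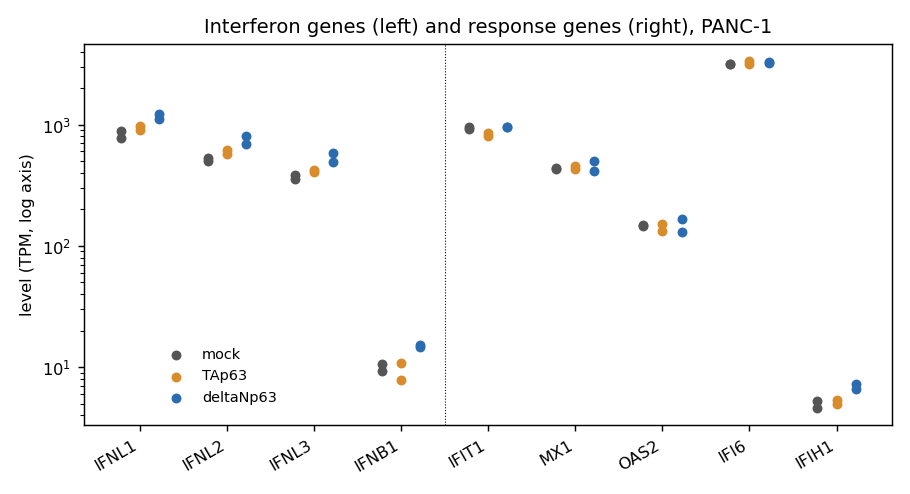
Points give the level (TPM, log axis) of 4 interferon ligand genes and 5 response genes in each of the 6 PANC-1 libraries, coloured by group. For IFNL1, IFNL2, IFNL3 and IFNB1 both deltaNp63 points lie above both mock points, while MX1 and OAS2 overlap. Both TAp63 points also lie above both mock points for IFNL1, IFNL2 and IFNL3.

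Cytokine and immune regulator genes gave 0 calls among 64 tested, with a median of 0.038. Above mock without overlap were 10 (15.6%) and below 7 (10.9%), against 10.8% and 16.3% of all genes. CXCL8, a neutrophil chemokine, was at 10.3 and 12.7 TPM in mock and 13.6 and 16.7 TPM in deltaNp63 cells (0.38, interval -0.11 to 0.86), with the TAp63 libraries at 10.3 and 8.3 TPM. CSF1, the macrophage growth factor, was at 83.1 and 85.9 TPM against 81.2 and 94.0 TPM, and CCL2, a monocyte chemokine, at 115 and 138 TPM against 118 and 143 TPM. IL1R1, the interleukin-1 receptor, was at 3.75 and 3.27 TPM against 2.97 and 1.56 TPM (-0.50, interval -1.32 to 0.32). CSF1 and CCL2 overlapped between the groups.

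Growth factor and developmental signalling genes gave no call. Among 47 EGFR, MAPK and immediate early genes the median was 0.055 and 0 passed. EGFR was at 61.2 and 69.4 TPM in mock and 62.7 and 73.7 TPM in deltaNp63 cells, and ATF3, a stress-induced and immediate early factor, at 112 and 135 TPM against 146 and 174 TPM (0.37, interval 0.04 to 0.70, limma adjusted p 1). Among 62 Notch, Wnt and YAP genes the median was -0.005. On each side 7 lay without overlap (11.3% each), against 10.8% above and 16.3% below over all genes. MFNG, a glycosyltransferase that modifies Notch, was at 1.98 and 1.61 TPM against 1.01 and 1.0 TPM (-0.48, limma adjusted p 1), while HES1, a Notch target, was at 33.9 and 32.7 TPM against 31.1 and 31.1 TPM and JAG1 overlapped. Among 39 TGF-beta genes 9 lay above mock without overlap (23.1%) and 7 below (17.9%), against 10.8% and 16.3% of all genes. Their median was -0.016. The 44 proteases and serpins had a median of -0.013, and SERPINB5, the squamous marker maspin, was at 0.0324 TPM or less in all 4 libraries.

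Sterol and fatty acid synthesis genes had the highest share of members below mock without overlap among the 24 lists. Of 47 tested members 24 lay below mock without overlap (51.1%, against 16.3% of all genes, and 44.7% after median centring) and 2 lay above (4.26%), with a median log2 fold change of -0.129 and 0 members past the threshold. The median was between -0.148 and -0.062 when 1 of the 4 libraries was left out, and between -0.117 and -0.108 under quantile normalization and median centring. TAp63 minus mock, which shares the mock libraries, gave a median of 0.03. SCD, the stearoyl-CoA desaturase, was at 391 and 336 TPM in mock, 305 and 309 TPM in deltaNp63 cells and 402 and 368 TPM in TAp63 cells (-0.24 against mock, interval -0.45 to -0.03, limma adjusted p 1). MSMO1, a sterol oxidase, had the largest negative value, at 65.8 and 55.5 TPM against 52.2 and 43.3 TPM (-0.34, interval -0.69 to 0.01). SREBF2, the transcription factor of this pathway, was at 33.0 and 32.3 TPM against 28.9 and 28.2 TPM, and DHCR7, a late enzyme of the pathway, at 96.4 and 95.8 TPM against 81.5 and 85.1 TPM. CYP51A1 was at 73.8 and 72.6 TPM against 61.9 and 64.9 TPM (-0.20, interval -0.39 to -0.02). FASN, the fatty acid synthase, overlapped between the groups, at 99.9 and 106 TPM against 104 and 104 TPM. SREBF2, DHCR7 and CYP51A1 were named after their values were seen. The genes of a pathway are not independent, so the count is a description.

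Energy metabolism genes gave no call. The 79 nuclear oxidative phosphorylation genes had a median of 0.012, and the 13 mitochondrially encoded genes -0.059 with no member separated between the groups. MT-CO1 was at 2999 and 2426 TPM in mock and 2539 and 2654 TPM in deltaNp63 cells, and ATP5F1B at 1013 and 1007 TPM against 959 and 1017 TPM. NDUFA6, a complex I subunit, was the exception in size, at 3.48 and 2.9 TPM against 12.6 and 7.55 TPM (1.37, interval -0.05 to 2.78, limma adjusted p 1), with TAp63 libraries at 10.3 and 3.83 TPM. The 48 hypoxia and glycolysis genes had a median of -0.018, and LDHA was at 1364 and 1317 TPM against 1299 and 1299.8 TPM (-0.04, interval -0.17 to 0.08). The 79 ribosomal protein genes had a median of 0.023, with RPLP0 at 2889.7 and 3028 TPM against 3078 and 2918 TPM.

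Stress genes showed no common direction. The 62 unfolded protein and integrated stress response genes had a median of 0.015. Above mock without overlap were 10 (16.1%) and below 8 (12.9%), against 10.8% and 16.3% of all genes. ATF4, which drives that response, was at 262 and 277 TPM in mock and 273 and 278 TPM in deltaNp63 cells. DDIT3, its target CHOP, was at 162 and 202 TPM against 185 and 223 TPM, and HSPA5, an endoplasmic reticulum chaperone, at 473 and 567 TPM against 459.7 and 559 TPM. All 3 overlapped. SLC7A11, the cystine transporter that supplies glutathione synthesis, was at 8.19 and 8.04 TPM against 5.77 and 6.59 TPM (-0.35, interval -0.60 to -0.09, limma adjusted p 1). The 48 NRF2 genes had a median of 0.00, and NQO1 was at 264 and 265 TPM against 254 and 254 TPM. GCLC, the glutathione-synthesis enzyme, was at 7.54 and 8.65 TPM against 15.1 and 12.6 TPM, with a wide interval (0.71, -0.48 to 1.90).

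Other chromatin and metal-handling lists held HOXB-AS4 and MT1P1, which with TP63 were the only called list members. Both entered the test only through the deltaNp63 libraries, so their calls support nothing about these lists. HOXB-AS4 was the 1 of 42 tested HOX-cluster genes that passed. The median of the list was -0.035, with 4 above mock without overlap (9.52%) and 9 below (21.4%), against 10.8% and 16.3% of all genes. HOXB9 was at 40.3 and 43.7 TPM in mock and 42.2 and 50 TPM in deltaNp63 cells, and HOXC10 at 75.7 and 73.2 TPM against 71.3 and 73.0 TPM. MT1P1 was the 1 of 30 metallothionein and metal transport genes that passed. Of those 30 genes 4 lay above mock without overlap (13.3%) and 8 below (26.7%), against 10.8% and 16.3% of all genes. MT2A and MT1X, metallothioneins that bind zinc and copper, overlapped between the groups. MT2A was at 894 and 1066 TPM against 920.1 and 1104 TPM, and MT1X at 71.5 and 81.2 TPM against 70.5 and 81.4 TPM. Replication-dependent histone genes had the highest list median, 0.125, over 22 tested members. Of these, 8 lay above mock without overlap (36.4%) and 4 below (18.2%), against 10.8% and 16.3% of all genes. H3C4 was at 1.09 and 1.52 TPM against 2.96 and 1.91 TPM (0.56) and H2AC20 at 1.73 and 1.81 TPM against 0.833 and 0.925 TPM (-0.56), neither past the threshold. Most of these histone mRNAs lack a poly(A) tail, and the libraries were made with a stranded mRNA kit per the labels, a kind of kit that usually selects poly(A) tails.

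**Figure D5:**
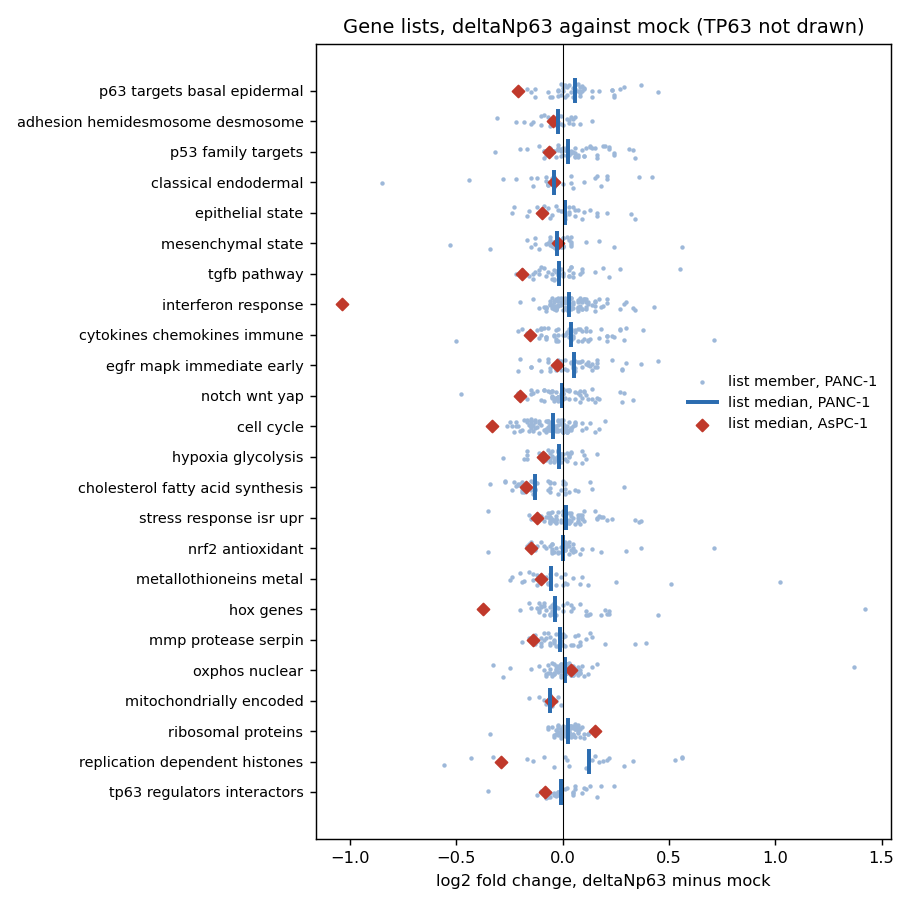
Pale points give the log2 fold change (deltaNp63 minus mock) of each tested member of 24 gene lists in PANC-1, blue bars the list median in PANC-1 and red diamonds the list median in AsPC-1; TP63 is left out of the points. All PANC-1 medians lie between -0.129 (sterol and fatty acid synthesis) and 0.125 (histones), while the AsPC-1 median of the interferon response list is -1.038.

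DeltaNp63 and TAp63 cells of the same line were compared next. In limma 4 genes passed (0.0271%), 2 higher and 2 lower in deltaNp63 cells, and 437 had an unadjusted p under 0.05. ENSG00000269836 and MT1P1 were the higher ones, as listed above, each with the TAp63 libraries at 0. ENSG00000215861 was lower (-1.56, limma adjusted p 0.0466), and ENSG00000226767, a processed pseudogene on chromosome 7 (65508773 to 65508944), was listed at 0 in deltaNp63 and mock cells and at 1.02 and 1.15 TPM in TAp63 cells (limma adjusted p 0.0466). ENSG00000269836, MT1P1 and ENSG00000226767 passed the filter only through the group in which they were high, and their p-values support nothing. These calls also depended on the shared fit, since 0 genes passed in the fit of the 6 PANC-1 libraries (918 with an unadjusted p under 0.05). Leaving out any of the 6 AsPC-1 libraries or TAp63 replicate 2 also left 0, and leaving out each of the other PANC-1 libraries left 1 to 3. The p63 target list had a median of -0.057 for deltaNp63 minus TAp63 and 0.142 for TAp63 minus mock. Those figures share the TAp63 libraries, and the deltaNp63 and TAp63 comparisons share the mock libraries.

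AsPC-1 cells with deltaNp63 were compared with their own mock. There TP63 rose by 7.23 log2 units, to 245.08 and 350.352 TPM in the deltaNp63 libraries from 1.098 and 0.817 TPM in mock, and 1055 genes passed (7.14%), of which 94 rose (0.637%) and 961 fell (6.51%). With only the groups compared in the fit 0 genes passed in AsPC-1 (2020 at an unadjusted p under 0.05 in limma) and 1 in PANC-1. After median centring of the libraries 419 passed there, of which 249 rose and 170 fell, and after quantile normalization 199 passed, of which 51 rose and 148 fell. The difference between the lines, PANC-1 minus AsPC-1, passed for 86 genes (0.582%), with 83 higher in PANC-1 (0.562%) and 3 lower (0.0203%). Its median over all genes was 0.114, so a list is read against that value. Interferon response genes supplied 49 of the 86, with a median difference of 1.071, and their median log2 fold change was -1.038 in AsPC-1 against 0.031 in PANC-1. OAS2, an antiviral oligoadenylate synthetase, was at 146 and 148 TPM in PANC-1 mock and 130.3 and 165 TPM with deltaNp63, where its value was 0.00, against -2.71 in AsPC-1 (difference 2.71, limma adjusted p 0.00154). IFIT3 and IFI6, also antiviral effectors, differed by 2.13 (limma adjusted p 0.000568) and 2.06 (0.00154). The interferon ligands IFNL2 and IFNL3 differed by 1.78 and 1.87 (limma adjusted p 0.00154 and 0.00552), with values of -1.25 and -1.34 in AsPC-1. The p63 target list gave 0 members that differed between the lines. In AsPC-1 its median was -0.21, against -0.119 over all genes. Of its 46 tested members 2 passed there as higher and 4 as lower, against 0.637% and 6.51% of all genes. The count of 86 was between 38 and 95 in the other settings except 1, and was 2196 without AsPC-1 deltaNp63 replicate 2, and the AsPC-1 count was 4057 without that library and 98 without AsPC-1 mock replicate 1.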

How the data were processed

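RNA was measured in 12 libraries of 2 pancreatic cancer cell lines under 3 conditions, from total RNA with the TruSeq Stranded mRNA kit per the labels' protocols. The authors deposited TPM values for 153329 Ensembl transcripts, with each column summing to 1000000. The quantification program, genome build and annotation are not given in the sources used here, and TPM gives no depth.

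Transcripts were matched to GENCODE v44 (hg38): 139819 matched (91.2%), carrying 89.6% to 90.5% of each library's TPM, and 13510 were left out. TPM was summed to 39099 genes, and 14767 genes reaching 1 TPM in 2 or more libraries were tested. Limma 3.58.1 in R 4.3.3 was fitted to log2(TPM + 1), pseudocount 1, with 1 coefficient per group (6), 6 residual degrees of freedom and a variance trend. P-values were two-sided and Benjamini-Hochberg adjusted separately for every comparison, threshold 0.05, and 95% intervals came from the same fit. Tables and figures were made with Python 3.11.15 (pandas 2.3.3, numpy 2.4.6, matplotlib 3.10.9).

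On simulated data of 14767 genes for the comparison of PANC-1 deltaNp63 with mock, 79% of 100 changes of 1 log2 unit and 98% of 100 changes of 2 units were called, with 9 unchanged genes called. The simulated noise was independent and normal, with the gene variances estimated by the fit. The planted changes also outnumbered the genes called in the data, which eases the adjusted threshold. These rates describe the simulated setting and do not give the power of the real comparison.

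The members and lists were chosen with earlier results of these data known. Lists were given counts and medians and no test. Named genes were TP63, all genes past the threshold, the 10 highest and 10 lowest changes among genes with a mean of at least 5 TPM, no overlap and an unadjusted p under 0.05, preset members of each list with its largest separated rise and fall, and the 5 smallest p in the difference between the cell lines. Genes marked as named after their values were seen fall outside this rule. Other settings were no variance trend, quantile normalization, median centring, all genes without the filter on low values, a stricter minimum (mean of 5 TPM), a pseudocount of 0.1, only the groups compared, only the PANC-1 libraries, a replicate block, transcript rows and leaving out each library. A filter on the 6 PANC-1 libraries alone was added after seeing the data. Results of some named genes are not reported here.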

Additional observations from a re-analysis of the deposited data

Results flagged for a closer look

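The change with deltaNp63 differed between the cell lines for 86 genes by a direct test of that difference (limma, adjusted p under 0.05). The values below, for genes named by the rule that were among them, are the log2 fold change in PANC-1 minus that in AsPC-1. TP63 differed by 2.61 (limma adjusted p 0.01, from 0.00236 to 0.0689 over 20 other settings). TP63 rose in both lines, from 0.119 and 0.0245 TPM in PANC-1 mock and 1.098 and 0.817 TPM in AsPC-1 mock.

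Of 94 tested interferon response genes 76 fell with deltaNp63 in AsPC-1 (6.51% of all genes did) and 0 passed in PANC-1, while with only the groups compared in the fit 0 genes of any kind passed in AsPC-1. OAS2 differed by 2.71, MX1 by 2.51, IFIT3 by 2.13, IFI6 by 2.06, IFIT1 by 1.79 and PARP12 by 1.27. These 6 passed in all 20 other settings in which they were tested. IFIH1 differed by 1.46 and passed in 8 of 20, and IFIT5 by 1.00 and passed in 12 of 20. The ligands IFNL2 and IFNL3 differed by 1.78 and 1.87 and passed in all 20.

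LTBP4, the latent TGF-beta binding protein, differed by 1.19 (0.55 in PANC-1 and -0.64 in AsPC-1) and passed in 8 of 20. The genes listed at 0 in all AsPC-1 libraries carry their PANC-1 change into the difference: HOXB-AS4 by 1.42, MT1P1 by 1.02, ENSG00000269836 by 2.16 and ENSG00000250976 by -1.68. These 4 genes entered the test only through the PANC-1 group in which they were high, so their p-values support nothing, and of the 19 other settings HOXB-AS4 passed in 17, ENSG00000269836 in 8, ENSG00000250976 in 6 and MT1P1 in 4.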

How the results depend on the processing

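The 6 genes called for PANC-1 deltaNp63 against mock became 2 with quantile normalization, 2 with median centring, 41 with no low-value filter (21 higher, 20 lower), 1 with a mean of at least 5 TPM, 1 with only the groups compared, 1 with only the 6 PANC-1 libraries, 1 with the filter on these libraries added after seeing the data, and 10 on transcript rows. Leaving out 1 library gave 2 to 8. The transcript rows that passed, chosen after their values were seen, were 4 of TP63 and 1 each of HOXB-AS4, CPNE1, AZI2, CEP152, RNF121 and LDAF1. For deltaNp63 against TAp63 the 4 became 0 with quantile normalization (487 at an unadjusted p under 0.05 in limma), 0 with median centring (463), 31 with no filter, 0 with a mean of at least 5 TPM (219), 0 with only the groups compared (844), 0 with only the PANC-1 libraries (918), 1 with their own filter and 11 on transcript rows, and 0 to 3 without a library. The 86 of the difference between lines became 49 with only the groups compared, 38 on transcript rows, and 44 to 2196 without a library. The 1055 of AsPC-1 became 199 with quantile normalization, 419 with median centring, 221 with no filter, 0 with only the groups compared (2020 unadjusted), 154 on transcript rows, and 98 to 4057 without a library. Intervals within 1 unit numbered 26119 of 27292 genes with no filter, 11956 of 14767 with a pseudocount of 0.1, and 13339 to 14059 without a library. With median centring the AsPC-1 calls were 249 higher and 170 lower, against 94 and 961. The cause was not tested. No gene given here that passed its test changed sign.

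With the replicate number as a replicate block the counts were 1, 0 (573 at an unadjusted p under 0.05 in limma), 95 and 1633 in the same order. The numbers are shared labels: same-numbered PANC-1 libraries deviated from their group means with a correlation across genes of 0.112 for mock and deltaNp63, -0.043 for TAp63 and deltaNp63 and 0.022 for mock and TAp63.

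Of 225 genes examined singly, 148 kept the sign of their PANC-1 value in every setting. ACTA2, at 0.56, ran from -0.2 to 1.32 and passed in 0 of 21 (limma adjusted p 1 throughout). With 2 libraries per group no outlier test was possible, and under 1 TPM 83.0% of intervals lay within 1 unit, against 99.7% at 100 TPM or more.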
